A study of Danio rerio with 4 samples.

Results

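The genes described here are *kif5ba*, *kif5bb*, *hook2*, *rgs14a* and *celf1*, which encode transport and RNA-binding partners of the zebrafish germ plasm. They were taken by name from the gene list of the scRNA-seq data, and each had 1 entry, giving 5 of 47394 genes. The cells came from whole embryos at the shield stage and formed 4 libraries, of which a pair came from siblings, labelled wild type, and a pair from M*rbm24a* embryos. M*rbm24a* embryos came from F0 founder mothers that carried the homozygous *rbm24a-RFP* KI allele with a *zpc:cas9* cassette, which expresses Cas9 in oocytes, and a Tol2 transgene with sgRNAs against *rbm24a* and a BFP marker. They were chosen as BFP-positive and lacking Rbm24a-RFP, so they lack the maternal product and are not 1 defined allele, and each library pools the cells of many embryos. Whether the siblings carried the knock-in allele is not given for these libraries.

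Germ plasm is a maternal deposit of RNAs and proteins that gathers at the first cleavage furrows and is inherited by a few cells, the future primordial germ cells (PGCs). The *kif5b* genes encode heavy chains of kinesin-1, a motor that walks toward microtubule plus ends, and in zebrafish maternal Kif5Ba is needed to bring germ plasm to the furrows. Hook2 belongs to the Hook adaptors that join cargo to dynein, the opposite motor. Rgs14a is a regulator of G protein signalling that speeds the shutdown of Gαi proteins, and in zebrafish it acts in the motility of PGCs. Celf1 binds GU-rich mRNA and promotes the removal of poly(A) tails.

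The deposited matrix held 14455 cells, between 3402 and 3952 per library, with median totals of 9778 to 15667 estimated UMIs (unique molecular identifiers, 1 per captured mRNA molecule). Cells were placed in groups by a value over 0.5 for *krt92* (enveloping layer, EVL, 982 cells), *sox32* (endoderm, 4412), *noto* (axial mesoderm, 3796), *tbx6l* (paraxial mesoderm, 3487), *foxi1* (epidermal ectoderm, 2321) or *her3* (neural ectoderm, 3411). In each of the 6 groups at least 4 other markers of the named tissue were higher than in the remaining cells of every library. In *sox32*-positive cells, however, the other endoderm markers summed to 556 to 755 CPM and those of epidermal ectoderm to 1095 to 1766 CPM. The tissue names are those of the marker, and outside *krt92* they do not mean that the cells were of that tissue. The groups overlapped, since 5955 cells passed for exactly 1 marker and 3700 for none, and 39.1% of *sox32*-positive cells were also *noto*-positive. Levels over cells with exactly 1 marker, called single-marker cells, are therefore given beside those of the full groups. Of the barcodes, 16 sequences occurred in more than 1 library.

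Some libraries stood apart in depth. In sibling 2 the 579 *krt92*-positive cells had a median total of 868. In M*rbm24a* 2, 22 of 165 *krt92*-positive cells had totals over 50000, were over 0.5 for a median of 6 of the 6 markers, and held 74.6% of the UMIs of that group. The other 3 libraries had 2 or 3 such *krt92*-positive cells, with 8.25% to 9.25% of their group's UMIs. Tests of the genes named in *krt92*-positive cells against the remaining cells are given with and without cells over 50000.

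Levels are given in CPM, counts scaled to a common total over the summed cells of a library, with exact Poisson 95% intervals that cover counting error only. Values of a genotype are always given in the order of its replicates 1 and 2. All tests were edgeR quasi-likelihood tests on sums per library with Benjamini-Hochberg adjustment over all genes tested. Fold changes are on the log2 scale with a standard error (SE). Since nothing states that the libraries of a genotype came from separate clutches, the p-values measure only the spread between these libraries.

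The motor gene *kif5ba* stood out in EVL cells. In single-marker *krt92*-positive cells it was at 454 and 444 CPM for siblings and 448 and 408 CPM for M*rbm24a*. In the other 5 single-marker groups its 20 values lay between 139 and 204 CPM, so the EVL values did not overlap with them. The mean was 439 ± 20.7 CPM (SD, n = 4) in *krt92*-positive cells, 175 ± 21.5 in *her3*-, 173 ± 11.9 in *foxi1*-, 166 ± 23.9 in *noto*-, 155 ± 10.9 in *sox32*- and 153 ± 17.4 in *tbx6l*-positive cells. Every group therefore held *kif5ba* mRNA, with a higher level in the EVL.

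Each of the 5 contrasts of *krt92*-positive against another single-marker group passed the test for *kif5ba*. The log2 fold change was 1.71 (SE 0.10, adjusted p = 2.7e-16) against *sox32*-positive cells and 1.54 (SE 0.09, adjusted p = 1.46e-15) against *her3*-positive cells, with that against *noto* and *foxi1* between them and that against *tbx6l* at 1.71. It stayed between 1.43 and 1.96 whichever library was left out. EVL cells differed from deep cells in a large share of genes, and 52.4%, 52.8%, 55.5%, 54.3% and 56.3% of all genes passed against *sox32*, *noto*, *tbx6l*, *foxi1* and *her3*. Of the 10 contrasts among the other 5 groups, none passed for *kif5ba*, so its neighbours in the order below *krt92* did not differ beyond their spread. In those 10 contrasts 3.56% to 14.9% of all genes passed. The shares were 6.86%, 9.06%, 10% and 14.9% for *sox32* against *noto*, *tbx6l*, *foxi1* and *her3*, then 7.68%, 8.51% and 11.1% for *noto* against *tbx6l*, *foxi1* and *her3*, 12% and 14.4% for *tbx6l* against *foxi1* and *her3*, and 3.56% for *foxi1* against *her3*. Over all 5 members, 10 of 75 contrasts passed, of which 9 were *kif5ba* or *kif5bb* in *krt92*-positive cells.

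**Figure D1:**
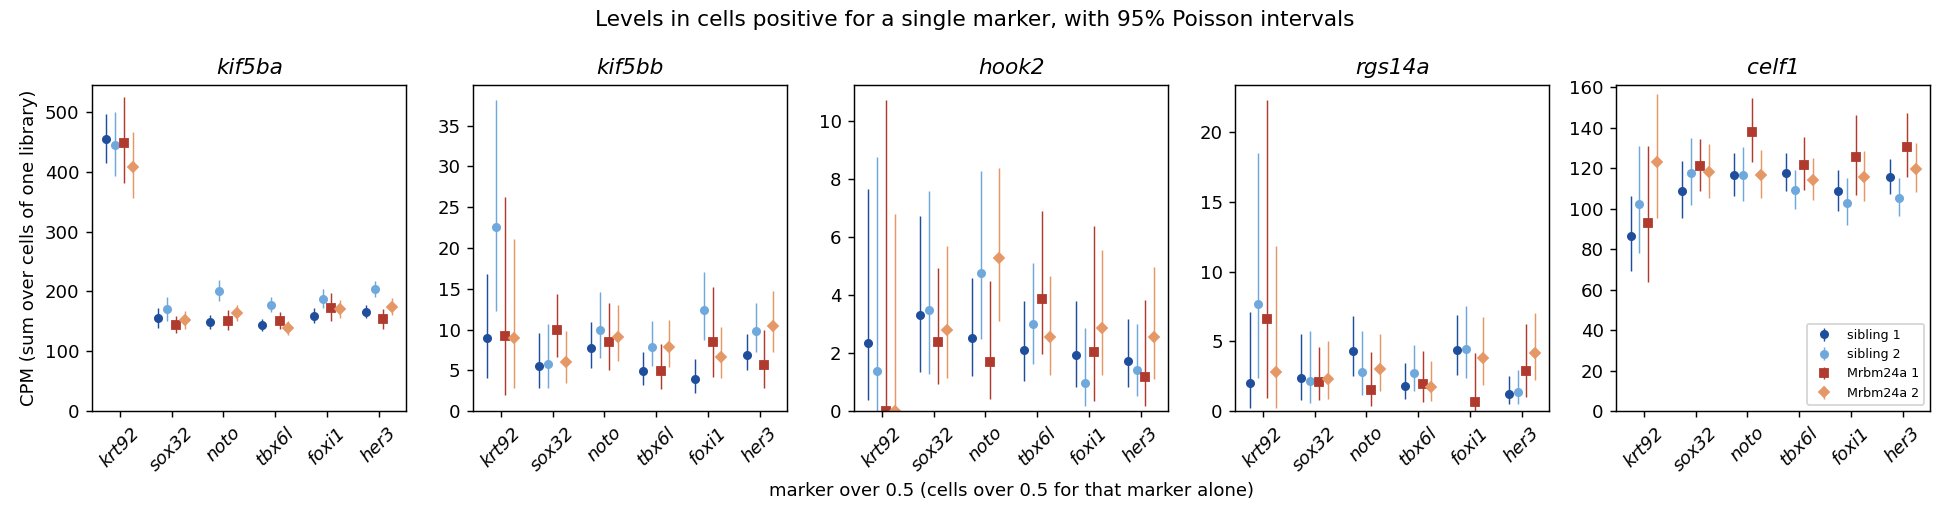
Levels of the 5 genes (y axis, CPM of summed cells) in single-marker cells of the 6 groups (x axis), 1 point per library with its 95% Poisson interval. The *kif5ba* points of *krt92*-positive cells lie between 408 and 454 CPM, above all 20 points of the other groups. The *celf1* points lie between 86.3 and 123 CPM in *krt92*-positive cells and between 103 and 138 CPM in the other groups.

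In the full *krt92*-positive group, *kif5ba* was at 443 and 476 CPM for siblings and 404 and 158 CPM for M*rbm24a*. The remaining cells were at 146 and 188 CPM for siblings and 145 and 148 CPM for M*rbm24a*. The value of M*rbm24a* 2 was the low one. Its 22 cells of very high total had *kif5ba* at 71.3 CPM and *krt92* at 1084 CPM, and its other *krt92*-positive cells had 413 CPM and 7195 CPM. Against the remaining cells *kif5ba* was higher, with a log2 fold change of 1.23 (SE 0.27, adjusted p = 0.00324), and 1.34 (SE 0.15, adjusted p = 2.72e-08) without cells over 50000. In this comparison 24.1% of genes passed.

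Mean levels of *kif5ba* rose with the *krt92* level of the cells. Cells not over 0.5 for *krt92* had a mean of 157 ± 20.9 CPM (SD, n = 4), cells over 0.5 and under 500 CPM of *krt92* a mean of 209 ± 121 CPM (n = 3, since M*rbm24a* 1 had no such cells), and cells from 500 to 5000 CPM a mean of 299 ± 140 CPM. Cells at or above 5000 CPM had *kif5ba* at 487 and 617 CPM for siblings and 401 and 399 CPM for M*rbm24a*, with a mean of 476 ± 103. The levels also differed in depth. Median totals per library were 745 to 9071 from 500 to 5000 CPM of *krt92* and 5408 to 17159 at 5000 CPM or more. Of the 530 cells from 500 to 5000 CPM, 440 were of sibling 2, at the median total of 745. A cell of that total reaches this level with 1 UMI of *krt92*. Whether depth plays a part in the rise was not tested. Of the single libraries, only sibling 1 rose at each level. Sibling 2 had 324 CPM under 500 CPM of *krt92* and 303 CPM from 500 to 5000 CPM, M*rbm24a* 1 had 412 CPM from 500 to 5000 CPM and 401 CPM above, and M*rbm24a* 2 had 82.2 and 101 CPM at the middle levels. Of the 22 cells of very high total in M*rbm24a* 2, 12 lay under 500 CPM of *krt92* and 8 from 500 to 5000 CPM. Without cells over 50000 the means of the 4 levels were 159 ± 19.6, 281 ± 53.2, 377 ± 51.7 and 478 ± 77.9 CPM, and those 2 levels of M*rbm24a* 2 were at 299 and 413 CPM. At the highest *krt92* level both siblings lay above both M*rbm24a* libraries. With 2 libraries against 2, an exact permutation test cannot give a two-sided p below 0.33. Such a separation alone therefore shows no genotype difference, here or in whole libraries. The share of all genes that separate in this way is not given.

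**Figure D2:**
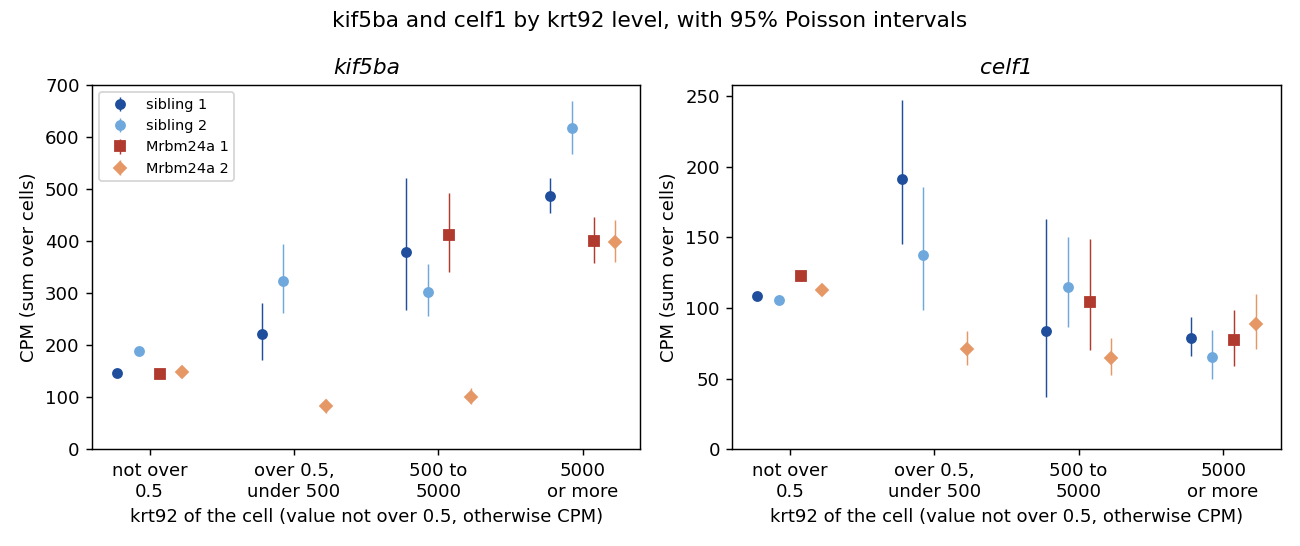
Levels of *kif5ba* and *celf1* (y axes, CPM of summed cells) by the *krt92* level of the cells (x axes), 1 point per library with its 95% Poisson interval. In cells at 5000 CPM or more of *krt92*, *kif5ba* lies between 399 and 617 CPM, and *celf1* has a mean of 77.5 CPM.

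Outside the EVL, *kif5ba* was slightly lower in *sox32*- and *tbx6l*-positive cells. In *sox32*-positive cells it was at 134 and 187 CPM for siblings and 141 and 128 CPM for M*rbm24a*, against 169 and 206 CPM and 165 and 170 CPM in the remaining cells. The log2 fold change was −0.18 (SE 0.04, adjusted p = 0.0210), where 17.8% of genes passed. In *tbx6l*-positive cells it was at 135 and 177 CPM for siblings and 142 and 125 CPM for M*rbm24a*, against 166 and 211 CPM and 158 and 168 CPM, a log2 fold change of −0.18 (SE 0.04, adjusted p = 0.0164), where 21.5% passed. Each library showed the lower value, and the remaining cells included most *krt92*-positive cells. In single-marker cells against cells with no marker, *sox32* no longer passed (log2 fold change −0.12, adjusted p = 0.189). Without sibling 1 neither call was kept (adjusted p = 0.0799 and 0.109), and for *sox32* it was also lost without M*rbm24a* 1 (0.0563) and without M*rbm24a* 2 (0.0596). That of *tbx6l* was also lost with the marker at 500 CPM or more (adjusted p = 0.304). For *noto*-, *foxi1*- and *her3*-positive cells, where 7.79%, 2.97% and 20.5% of genes passed, no member did. In all, 3 of the 30 tests of members against the remaining cells passed, each of *kif5ba*.

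The paralogous motor gene *kif5bb* rested on 1581 UMIs in all cells. In single-marker *krt92*-positive cells it was at 8.91 and 22.6 CPM for siblings and 9.27 and 8.93 CPM for M*rbm24a*, and its 20 values in other groups ranged from 3.94 to 12.4 CPM. Only sibling 2 stood clear of the other groups. Log2 fold changes of 1.02 (SE 0.35, adjusted p = 0.0161) against *sox32*-, 1.14 (SE 0.34, adjusted p = 0.00506) against *tbx6l*-, 0.94 (SE 0.34, adjusted p = 0.0201) against *foxi1*- and 0.76 (SE 0.33, adjusted p = 0.0494) against *her3*-positive cells passed the test. That of 0.70 (SE 0.33, adjusted p = 0.0795) against *noto*-positive cells did not. Without sibling 2 the contrasts with *sox32*, *tbx6l* and *her3* no longer passed (adjusted p = 0.168, 0.0535 and 0.254), and without sibling 1 those with *sox32*, *foxi1* and *her3* did not (0.0531, 0.119 and 0.0958). The contrast with *noto* passed without M*rbm24a* 1 (0.85, adjusted p = 0.0405). By limma those with *foxi1* and *her3* did not pass (adjusted p = 0.0562 and 0.122). Against all remaining cells *kif5bb* had a log2 fold change of 0.18 (SE 0.32, adjusted p = 0.726) in *krt92*-positive cells, and 0.37 (adjusted p = 0.330) without cells over 50000. Its mean in cells at 5000 CPM or more of *krt92* was 7.45 ± 1.02 CPM, close to the 7.71 ± 0.774 CPM of cells not over 0.5 for *krt92*.

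The adaptor gene *hook2* was at 2.12 and 2.54 CPM in whole sibling libraries and 2.08 and 2.12 CPM in M*rbm24a*. Its highest mean over single-marker groups was in *noto*-positive cells, with 2.50 and 4.75 CPM for siblings and 1.70 and 5.28 CPM for M*rbm24a*. Its levels in *her3*-positive cells were 1.74 and 1.40 CPM for siblings and 1.18 and 2.55 CPM for M*rbm24a*, lower than the *noto* value in each library. The contrast had a log2 fold change of 1.08 (SE 0.35, adjusted p = 0.0424). The call was lost without sibling 1 (adjusted p = 0.0709), without M*rbm24a* 1 (0.0587) and by limma on log2(CPM + 1) (0.492), while *hook2* was not tested without sibling 2 or without M*rbm24a* 2. By edgeR none of the other 14 contrasts passed for *hook2*. By limma it was lower in *krt92*-positive cells than in *sox32*- (−1.24, adjusted p = 0.00358), *noto*- (−1.35, adjusted p = 0.00174) and *tbx6l*-positive cells (−1.19, adjusted p = 0.00479). In single-marker *krt92*-positive cells it was at 2.36 and 1.39 CPM for siblings, and both M*rbm24a* libraries had 0 UMIs. In the full *krt92*-positive group it was at 3.16 and 9.82 CPM for siblings, while M*rbm24a* 1 had 0 UMIs and M*rbm24a* 2 was at 0.427 CPM. It did not pass the filter on low counts for a genotype test there.

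Levels of *rgs14a* depended on a handful of cells. In *krt92*-positive cells it was at 4.53 and 26.2 CPM for siblings and 5.90 and 1.01 CPM for M*rbm24a*, against 2.52 and 2.41 CPM and 2.09 and 2.61 CPM in the remaining cells. Sibling 2 stood far above the others, and 32.0 of its *rgs14a* UMIs in that group lay in 3 cells with germ cell markers. The log2 fold change was 1.37 (SE 0.58, adjusted p = 0.106). It passed under 4 of the 10 alternatives that kept all libraries, with adjusted p from 0.0124 to 0.259. Among these 4 was the run without cells over 50000 (1.58, adjusted p = 0.0124). Of the 4 runs with a library left out 1 passed, that without M*rbm24a* 2 (2.07, adjusted p = 0.00235). Without the cells with germ cell markers it was 0.99 (adjusted p = 0.165).

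In *her3*-positive cells *rgs14a* was at 1.67 and 1.87 CPM for siblings and 2.01 and 2.07 CPM for M*rbm24a*. The remaining cells were at 3.27 and 4.36 CPM for siblings and 2.27 and 2.74 CPM for M*rbm24a*, higher in each library. That log2 fold change was −0.63 (SE 0.19, adjusted p = 0.0501), at the edge of the threshold. It passed without M*rbm24a* 1 (−0.76, adjusted p = 0.0438) and did not when another library was left out (adjusted p from 0.0524 to 0.198). Of the 9 other alternatives it passed under 5, with adjusted p from 0.00813 to 0.705, and did not with DESeq2 (0.215), in single-marker cells (0.705) or without cells over 50000 (0.0724). It moved to −0.20 (adjusted p = 0.348) without the cells with germ cell markers.

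The RNA-binding gene *celf1* was nearly even across deep cells. Its mean in single-marker cells was 122 ± 10.7 CPM (SD, n = 4) for *noto*, 118 ± 10.4 for *her3*, 116 ± 5.30 for *sox32*, 116 ± 5.37 for *tbx6l*, 113 ± 9.72 for *foxi1* and 101 ± 16.1 for *krt92*. None of its 15 contrasts passed, and neighbours in this order lay within their spread. By limma on log2(CPM + 1) it was lower in *krt92*-positive cells than in the *sox32*, *noto*, *tbx6l* and *her3* groups (log2 fold changes from −0.28 to −0.20), where the median of all genes was also below 0, at −0.39 to −0.33. In cells at 5000 CPM or more of *krt92* the mean was 77.5 ± 9.62 CPM, against 112 ± 7.33 in cells not over 0.5 for *krt92*. Against the remaining cells the full *krt92* group had a log2 fold change of −0.28 (SE 0.23, adjusted p = 0.404), or −0.27 (adjusted p = 0.166) without cells over 50000, and the fold changes of the other 5 groups lay between −0.02 and 0.05 without passing.

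Since germ plasm ends in a few cells, the members were also read in cells over 0.5 for at least 4 of the germ cell genes *nanos3*, *dnd1*, *ca15b*, *tdrd7a* and *dazl*, called germ marker cells here. Siblings had 20 and 9 of them and M*rbm24a* libraries 2 and 3. The vasa gene *ddx4*, which the rule did not use, was at 1972 and 4026 CPM in those of siblings against 140 and 120 CPM in the remaining cells. The 5 cells from M*rbm24a* embryos were unlike those of siblings, with median totals of 56079 and 72449 and *ca15b* at 16.9 and 12.4 CPM against 2382 and 5220 CPM for siblings. They met the rule with few UMIs of each gene, and *ddx4* was at 290 and 167 CPM in them against 223 and 188 CPM in the remaining cells. With so few cells, the levels are described without a test.

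The regulator gene *rgs14a* was concentrated in the germ marker cells of siblings. It was at 123 CPM (95% interval 93.6 to 158) in those of sibling 1 and 281 CPM (206 to 375) in those of sibling 2, against 1.64 and 2.26 CPM in the remaining cells. The ratios were 74.8 (53.3 to 104) and 124 (85.2 to 179). The 20 cells held 37.1% of all *rgs14a* UMIs of sibling 1, and the 9 cells held 33.8% of those of sibling 2. Within sibling 1 the 8 cells with all 5 markers were at 435 CPM and the 12 cells with 4 at 13.1 CPM. In sibling 2 the 3 cells with all 5 were at 268 CPM and the 6 cells with 4 at 289 CPM, so the excess did not follow the number of markers in both libraries.

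Single cells showed the same concentration. In each sibling library 4 cells had a value over 5.5 for *rgs14a*, with a highest value of 14.8 in sibling 1 and 17.8 in sibling 2, and all of them were germ marker cells. No cell of either M*rbm24a* library was over 5.5. The germ marker cells were uneven, since 10 of 20 in sibling 1 and 6 of 9 in sibling 2 were over 0.5 for *rgs14a*. In the M*rbm24a* cells that met the rule, *rgs14a* summed to 0.961 and 0.845 UMIs, under a floor of 3 counts, which would be 26.7 and 9.92 CPM. As a background, 100 of the 3514 remaining cells of sibling 1 and 95 of the 3558 of sibling 2 were over 0.5 for *rgs14a*, at median totals of 15662 and 10618 against 21599 and 20203 in the germ marker cells.

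**Figure D3:**
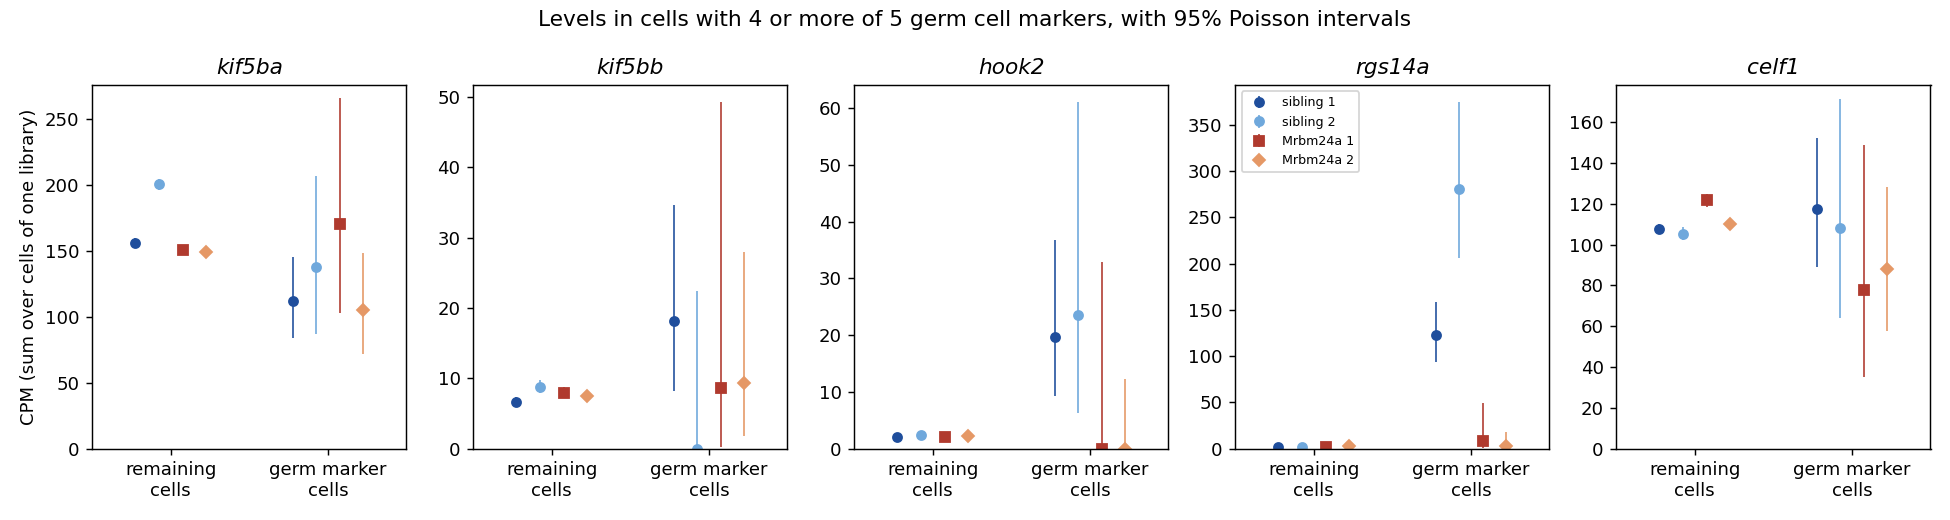
Levels of the 5 genes (y axes, CPM of summed cells) in germ marker cells and in the remaining cells of each library (x axes), with 95% Poisson intervals. In sibling germ marker cells *rgs14a* is at 123 and 281 CPM and *hook2* at 19.7 and 23.5 CPM, while *kif5ba* and *celf1* are at 0.686 to 1.09 times the level of the remaining cells.

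The adaptor gene *hook2* was also higher there, with smaller sums. It was at 19.7 CPM (9.28 to 36.8) in germ marker cells of sibling 1 and 23.5 CPM (6.21 to 61.1) in those of sibling 2, against 1.98 and 2.45 CPM in the remaining cells. The ratios were 9.97 (4.57 to 19.2) and 9.59 (2.49 to 25.7), and rested on 9.56 and 3.87 UMIs in 5 and 2 cells over 0.5. With at least 3 markers the ratios were 3.69 and 4.44. With all 5 the ratio of sibling 1 was 26.4, while the 3 such cells of sibling 2 had 0 UMIs, with an upper Poisson limit of 60.2 CPM. A rise with the number of markers was therefore not seen in both libraries. The germ marker cells held 7.28% and 3.79% of all *hook2* UMIs of the siblings. The M*rbm24a* cells that met the rule had 0 UMIs of *hook2*, with upper Poisson limits of 32.9 and 12.2 CPM.

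The motor genes and *celf1* had no such excess in both siblings. In germ marker cells *kif5ba* was at 112 CPM (83.9 to 146) in sibling 1 and 137 (86.8 to 207) in sibling 2, against 156 and 200 CPM in the remaining cells. Its ratio was 0.715 (0.537 to 0.933) in sibling 1 and 0.686 (0.433 to 1.03) in sibling 2. In sibling 1 the direction turned with the number of markers, since the *kif5ba* ratio was 1.21 (1.07 to 1.37) with at least 3 and 0.358 (0.144 to 0.736) with all 5. In sibling 2 it was 0.879 and 0.696. The gene *celf1* had ratios of 1.09 (0.825 to 1.42) and 1.03 (0.607 to 1.63). For *kif5bb* the ratio was 2.73 (1.22 to 5.28) in sibling 1, from 8.77 UMIs, and sibling 2 had 0 UMIs, with an upper Poisson limit of 22.4 CPM.

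The comparison of M*rbm24a* with sibling embryos asked whether the mRNA levels of the 5 genes differed in embryonic cells that lacked maternal Rbm24a. In whole libraries *kif5ba* was at 156 and 200 CPM for siblings and 151 and 149 CPM for M*rbm24a*. Both M*rbm24a* values were the lower ones, and sibling 1 was closer to them than to sibling 2. With 2 libraries per genotype such a separation alone shows no genotype difference, here or for *celf1* and *rgs14a* below. The share of all genes that separate in whole libraries is not given, so these separations are no result about the members. The log2 fold change was −0.20 (SE 0.10, adjusted p = 0.365). Of the 5 genes edgeR and DESeq2 called 0, and 0 had an unadjusted p under 0.05 by edgeR, where 1.1% of all genes passed. Without sibling 1, *kif5ba* passed at −0.32 (adjusted p = 0.00350), where 3689 genes passed against 195 with all libraries.

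For *celf1* the whole libraries were at 108 and 105 CPM for siblings and 122 and 110 CPM for M*rbm24a*. Both M*rbm24a* libraries lay above both siblings, with a gap smaller than the spread between the M*rbm24a* libraries and a log2 fold change of 0.16 (SE 0.09, adjusted p = 0.416). Without sibling 1, a fit with a lone sibling library, the log2 fold change of *celf1* was 0.24. For *kif5bb* the levels were 6.72 and 8.73 CPM for siblings and 7.92 and 7.52 CPM for M*rbm24a*, a log2 fold change of 0.05 (SE 0.12, adjusted p = 0.847). For *hook2* the log2 fold change was −0.10 (SE 0.15, adjusted p = 0.773), and the genotypes overlapped for both genes.

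For *rgs14a* the whole libraries were at 2.59 and 3.40 CPM for siblings and 2.18 and 2.49 CPM for M*rbm24a*. Both M*rbm24a* values were below both sibling values, with a log2 fold change of −0.29 (SE 0.17, adjusted p = 0.413). Without the germ marker cells the values became 1.64 and 2.26 CPM for siblings and 2.17 and 2.49 CPM for M*rbm24a*, the genotypes overlapped, and the log2 fold change was 0.32 (SE 0.18, adjusted p = 0.412). The sums do not tell fewer germ marker cells from less *rgs14a* mRNA in each of them.

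**Figure D4:**
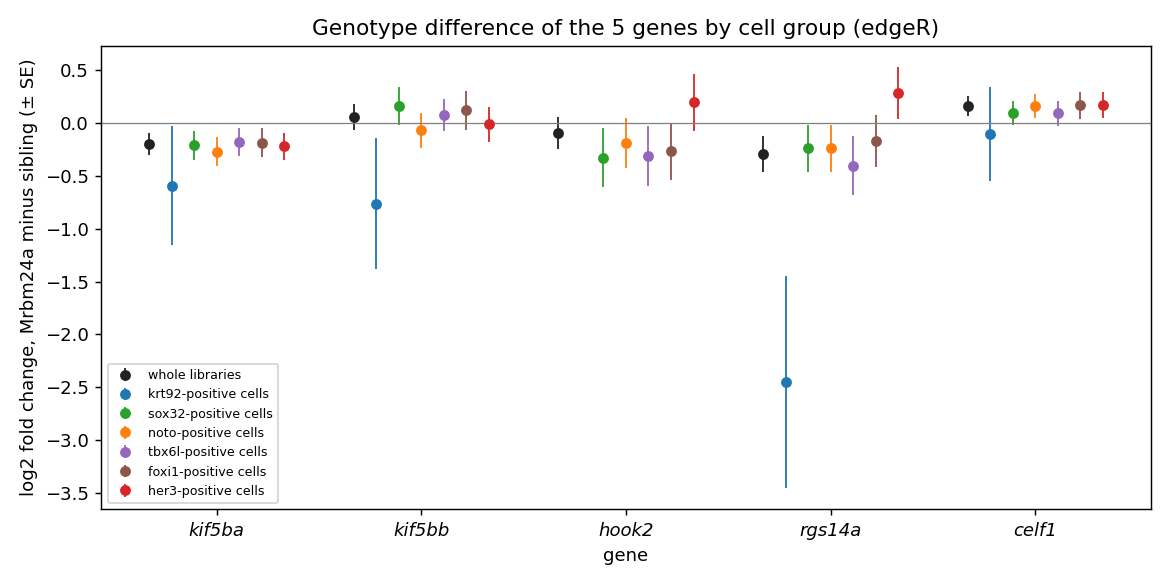
Log2 fold change of M*rbm24a* against sibling (y axis, edgeR, bars are ± SE) for the 5 genes (x axis) in whole libraries and in the 6 marker-positive groups. None of the values passed the test, and the *krt92*-positive group has the widest errors. There is no value for *hook2* in that group.

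Within the marker-positive groups edgeR and DESeq2 passed 0 of 29 tests of the members, and by edgeR 1 had an unadjusted p under 0.05, that of *rgs14a* in *krt92*-positive cells. The share of all genes that passed was 0 in *krt92*-, 1.45% in *sox32*-, 0.378% in *noto*-, 0.109% in *tbx6l*-, 0.0144% in *foxi1*- and 1.27% in *her3*-positive cells. For *kif5ba* all 6 log2 fold changes were below 0, from −0.60 to −0.18, with a smallest adjusted p of 0.424. For *celf1* they ranged from −0.10 to 0.17, and for *kif5bb* from −0.77 to 0.16. The 6 groups share cells, so equal signs are not separate observations. Without sibling 1, a fit with a lone sibling library, *kif5ba* had a log2 fold change of −0.43 in *noto*-positive cells.

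The *krt92*-positive group gave the largest fold changes and the largest errors. For *kif5ba* the log2 fold change was −0.60 (SE 0.56, adjusted p = 0.844), and −0.08 (SE 0.28, adjusted p = 0.998) without cells over 50000. For *rgs14a* it was −2.45 (SE 1.00, adjusted p = 0.825), and it moved to −1.09 (SE 0.88, adjusted p = 0.818) without the germ marker cells. Without M*rbm24a* 1, a fit with a lone M*rbm24a* library, it was −3.66. In single-marker *her3*-positive cells *rgs14a* had the opposite sign, with 1.27 and 1.39 CPM for siblings and 2.88 and 4.14 CPM for M*rbm24a*, and did not pass (1.41, SE 0.46, adjusted p = 0.339). The joint test of whether the genotype effect differs between the 6 groups gave no call for any of the 5 genes, by edgeR or limma. The smallest unadjusted p was 0.0781 for *rgs14a*, with an adjusted p of 1, and 0.0896% of genes passed.

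Related genes were read from lists of kinesin-1 subunits and adaptors, Hook partners, dynein and dynactin, RGS and Gαi genes, the CELF family and mRNA deadenylation. Of the 74 entries tested in whole libraries, none passed between genotypes, where 1.1% of all genes did. None passed in any marker-positive group, where 0 to 1.45% of all genes did. With shares this low, a list of this size may hold no call. Against the remaining cells, 11 of 72 entries were higher in *krt92*-positive cells and 1 was lower, where 15.8% of all genes were higher and 8.34% lower. Without cells over 50000, 12 entries were higher and 16 lower, where 18.2% of all genes were higher and 23.3% lower. Among 4 light chains tested, *klc1b*, a cargo-binding subunit of kinesin-1, rose with a log2 fold change of 1.05 (SE 0.27, adjusted p = 0.00962), and 1.09 without cells over 50000. In cells at 5000 CPM or more of *krt92* it was at 52.3 ± 6.71 CPM (SD, n = 4), against 19.2 ± 0.448 in cells not over 0.5.

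The Hook paralog *hook3* rose by 1.55 on the log2 scale (SE 0.27, adjusted p = 0.000517) in *krt92*-positive cells, while *hook2* did not pass there (0.27, SE 0.64, adjusted p = 0.802), nor without cells over 50000 (0.50, adjusted p = 0.515). Of 22 dynein and dynactin entries 3 were higher, with the largest change for *ndel1b_1* at 2.63 (SE 0.65, adjusted p = 0.00812), a second entry of a gene for a dynein regulator whose reads may be split between its entries. In the RGS and Gαi list 3 of 11 entries were higher and 1 was lower. There *rgs12b*, a relative of *rgs14a*, rose by 2.73 (SE 0.28, adjusted p = 1.68e-06), and *gnai1*, which encodes a Gαi subunit, fell by 1.37 (SE 0.34, adjusted p = 0.00831). The Gαi genes did not move together. Without cells over 50000 the 2 entries of *gnai2a* were higher (1.64 and 1.13, adjusted p = 9.32e-09 and 0.00807). In that setting *gnai2b* and *gnai3* were at −0.58 and −0.90 and did not pass. Of 20 deadenylation entries 3 were higher, led by *tob1a* at 2.69 (SE 0.27, adjusted p = 1.15e-06), which encodes a partner of the deadenylase complex. In the dynein and deadenylation lists 0 entries were lower, where 15.8% of all genes were higher and 8.34% lower. Without cells over 50000 the changes of *hook3*, *ndel1b_1*, *rgs12b*, *gnai1* and *tob1a* were 1.65, 3.01, 2.88, −1.77 and 2.87, and each passed. In that setting the dynein list had *dctn5*, *ndel1b* and *ndel1b_1* higher. Its entries *actr1*, *dctn1a*, *dctn2*, *dynll1*, *nde1*, *pafah1b1b* and *zgc:112102* passed as lower. The deadenylation list had *btg1*, *cnot4b*, *tob1a* and *tob1b* higher, and *cnot1_1*, *cnot3a*, *cnot3b*, *cnot6a*, *cnot8*, *cnot11* and *rqcd1* lower. No entry of the CELF family passed in *krt92*-positive cells, and *celf2* was 0.38 higher (SE 0.07, adjusted p = 0.00739) in *her3*-positive cells. There, 6 of 70 related entries were higher and 5 lower, where 8.63% of all genes were higher and 11.8% lower. In *sox32*-positive cells 6 of 70 were higher and 7 lower (all genes 10.8% and 7.07%). For *noto* these were 4 and 1 of 70 (4.4% and 3.4%), and for *tbx6l* 6 and 3 of 69 (11.4% and 10.0%). For *foxi1* they were 0 and 0 of 69 (1.21% and 1.76%).

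The genes most like each member were found by Pearson's r over the 24 sums of single-marker cells, which share 4 libraries and their depth, among genes with a mean of at least 20 CPM. For *kif5ba*, out of 5114 genes, these were *ywhabl* (r = 0.981), *zgc:110339* (0.979) and *alas1* (0.979), which encodes the first enzyme of heme synthesis. For *celf1* they were *zgc:173587* (0.856), *etv5b* (0.852) and *bcas3* (0.843). The sparse members had lower values, which were the highest over 5115 genes and were not tested against chance. They were 0.777 with *tnip1*, 0.756 with *ptpn11a* and 0.746 with *nras* for *kif5bb*, then 0.833 with *gse1*, 0.783 with *si:dkey-30k6.5* and 0.763 with *scoca* for *hook2*, and 0.613 with *emc10*, 0.597 with *tceb2* and 0.580 with *exoc1* for *rgs14a*. Between members, *kif5ba* had r = 0.549 with *kif5bb*, 0.428 with *rgs14a*, −0.585 with *hook2* and −0.641 with *celf1*. Its 4 *krt92* sums lay at 408 to 454 CPM and its 20 others at 139 to 204 CPM, so each r of *kif5ba* weighs that contrast heavily.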

How the data were processed

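Cells of shield-stage zebrafish embryos were profiled on the 10x Genomics 3′ platform. For the deposited matrix the authors trimmed reads (Trimmomatic, average quality 30), ran Cell Ranger (version and annotation not given in the sources used here), corrected for ambient RNA (DecontX), filtered doublets (Scrublet) and barcodes beyond the median ± 5 median absolute deviations, and joined the libraries. The submitters' processing notes name GRCz10. The deposited values are estimated counts with decimals, not scaled. No further doublet caller was run, and RefSeq names of GRCz12tu served to match symbols only.

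Sums per library and cell group were rounded and fitted by edgeR 4.0.16 under R 4.3.3, using filterByExpr, TMM factors, the quasi-likelihood test and Benjamini-Hochberg adjustment at 0.05, with the library as a term between cell groups. Genotype tests within a cell group needed 50 cells per library. Contrasts between groups did not, and single-marker *krt92*-positive cells of M*rbm24a* 1 numbered 42. Alternatives used DESeq2 1.42.0, limma 3.58.1 on log2(CPM + 1), other scaling, filters, thresholds and cells, a replicate block and each library left out. On simulated whole libraries of 17504 genes with 200 changed, 184 were recovered with 13 false calls. Other simulated designs recovered fewer of 200. These were 176 with 8 false calls between genotypes in *krt92*-positive cells, and 161 with 12 for *krt92*-positive against remaining cells. For *krt92* against *sox32* in single-marker cells it was 165 with 11. Each planted change was at least 1 on the log2 scale and lay in a gene above a floor on mean counts. The spread between libraries was the same for every gene, and was set beforehand and not estimated from these libraries. Changes as small as those of the members in whole libraries were not simulated. Levels and intervals used Python 3.11.15 with scipy 1.17.1.

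The genes named are the 5 members, the 3 genes most like each over the 24 sums, and in each related list those passing between genotypes or with the largest change. Beyond this rule *gnai1* and *celf2* were named after their values were seen. The members and lists were chosen with earlier results of these data known.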

Additional observations from a re-analysis of the deposited data

How the results depend on the processing

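Calls of members were 0 of 5 between genotypes in whole libraries and 0 within cell groups under each alternative other than leaving out a library, which gave 0 to 2 and 0 to 1. Within cell groups the main run held 29 tests of members. The alternatives that kept all libraries held 28 to 30, apart from 19 in single-marker cells and 9 with markers at 500 CPM or more. Against the remaining cells 3 of 30 passed, 1 to 4 with a library left out, and 5 with RLE factors, no filter or limma. Of the 15 pairs per gene 10 of 75 passed, 14 with limma, and 6 to 10 with a library left out, of which the runs without sibling 2 and without M*rbm24a* 2 tested 60, without *hook2*. The higher *kif5ba* in *krt92*-positive cells passed under every alternative run. Over all genes, 195 passed between genotypes in whole libraries, 437 with DESeq2, 1815 with no filter, 294 with library totals alone, 128 without cells over 50000, and 8 to 3689 with a library left out. Summed over the 6 groups, 482 passed, with 2925 for no filter, 959 for limma, 916 for library totals alone, 133 for single-marker cells, 45 without cells over 50000, 4 with markers at 500 CPM or more, and 438 to 5779 with a library left out. Against the remaining cells 15778 passed, 8001 to 13633 with a library left out, among pairs 43084, and 11 in the joint test of the genotype effect between groups, with 6 by limma. The cause was not tested. Limma put *celf1* in *krt92*- against *sox32*-positive cells at −0.21 (adjusted p = 0.0403) in place of 0.02, where the median of all genes was −0.39 in place of −0.11. Of 998 alternative values of single genes, 76 changed sign with no call on either side. The *rgs14a* ratio of sibling 1 was 30.1 in cells with at least 3 germ cell markers and 254 with all 5, and that of sibling 2 was 57.6 with at least 3. The alternatives without germ marker cells, without cells over 50000, with markers at 500 CPM, with library totals alone and with other numbers of germ cell markers were chosen after seeing the data.

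Samples with the same replicate number did not deviate together (r = −0.01 over 17768 genes). A single r over all genes cannot decide whether the number pairs the libraries. The paper states that the cells came in 2 batches, which neither the labels nor the methods tie to the replicate numbers. With the replicate block, 547 genes passed in whole libraries and 867 summed over the groups, and 0 members did. Within *krt92*-positive single-marker cells, and at 500 CPM within *tbx6l*-, *foxi1*- and *her3*-positive cells, genotypes were not tested, since a library had fewer than 50 cells. At 2 or 3 CPM, *hook2* and *rgs14a* rest on 96.3 to 160 UMIs per library, and differences within their Poisson intervals were not detectable at this depth. Where 1 library was left out, the lone library was taken to vary as the pair of the other genotype does.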
